A study of Mus musculus with 6 samples.

Results

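Homeostatic microglia genes mark the brain's resident macrophages in their surveying state. The 9 genes described here were chosen by name as known markers of that state, namely P2ry12, P2ry13, Gpr34, Tmem119, Fcrls, Siglech, Selplg, Sparc and Olfml3. All 9 were present among the 19848 genes of the RNA table, which was made by CITE-seq, a method that reads the RNA of single cells together with tags on antibodies bound to their surface. The cells came from whole brains of female C57BL/6 mice and were enriched for immune cells on a Percoll gradient after papain digestion. Per the labels, 24 brains, 6 from each of 4 groups, were combined into 12 pools, so that every group had 3 pools. The groups were mice of 12 weeks given vehicle (12-week control), mice of 12 weeks whose gut microbiota was depleted with antibiotics (12-week antibiotic), and the same pair at 72 weeks (72-week control and 72-week antibiotic). The labels name neither the antibiotic agents nor their dose or the length of treatment. The pool is the replicate below, and each p-value measures the spread between pools.

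Microglia read their surroundings through surface receptors, and P2ry12, P2ry13 and Gpr34 encode 3 of them. P2ry12 and P2ry13 are receptors for ADP that couple to inhibitory G proteins, and P2ry12 steers microglial processes towards sites of nucleotide release. Gpr34 is a receptor for lysophosphatidylserine. Tmem119 is a transmembrane protein widely used as a microglial marker, Fcrls is an Fc receptor-like scavenger receptor, Siglech is a sialic acid-binding lectin that signals through DAP12, and Selplg encodes PSGL-1, a selectin ligand found on most leukocytes. Sparc and Olfml3 are secreted proteins of the extracellular matrix. The identity of these cells depends on TGF-beta signalling and on transcription factors that include PU.1, Irf8 and Sall1, and homeostatic genes are known to decline when microglia take on a reactive state.

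The genes lie on 5 chromosomes of GRCm38.p6, the assembly that mm10 names. P2ry13 (chr3:59207892-59210882) and P2ry12 (chr3:59216271-59262985) are neighbours, and both fall within the span of Med12l. Fcrls (chr3:87250736-87263765) and Olfml3 (chr3:103735394-103738001) are on the same chromosome. Tmem119 (chr5:113793729-113800396) and Selplg (chr5:113817798-113832528) are close to each other. Siglech is at chr7:55768154-55779448, Sparc at chr11:55394159-55420080 and Gpr34 at chrX:13622650-13640859, within the span of Cask. Siglech overlaps Gm39015. No source used here says whether the counting used strand, and where it did not, reads of such overlapping genes cannot be told apart.

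The promoter windows of P2ry12 and P2ry13 are shown because these ADP receptors lie side by side and differ in how they were called below, and that of Olfml3 because it was called in border-associated macrophages. Each line gives the 250 bases before the annotated start, 5′ to 3′ on the gene's strand, from RefSeq (GRCm38.p6). Capitals mark matches to GAGGAA or GGAAGT, words that hold the core bound by ETS factors such as PU.1, searched on both strands. The words can overlap, the end of the first with the start of the second, and they were chosen after these sequences had been read.

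P2ry12, chr3:59262986-59263235, minus strand: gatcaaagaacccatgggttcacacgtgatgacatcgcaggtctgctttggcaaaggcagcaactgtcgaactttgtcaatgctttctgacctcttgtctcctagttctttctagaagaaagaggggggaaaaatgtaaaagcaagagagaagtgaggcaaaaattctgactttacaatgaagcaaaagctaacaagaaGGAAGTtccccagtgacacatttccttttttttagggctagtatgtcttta
P2ry13, chr3:59210883-59211132, minus strand: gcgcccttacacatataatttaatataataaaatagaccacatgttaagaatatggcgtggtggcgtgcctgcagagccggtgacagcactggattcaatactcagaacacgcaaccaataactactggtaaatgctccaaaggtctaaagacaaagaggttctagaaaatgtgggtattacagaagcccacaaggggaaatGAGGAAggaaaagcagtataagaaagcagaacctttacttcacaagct
Olfml3, chr3:103738002-103738251, minus strand: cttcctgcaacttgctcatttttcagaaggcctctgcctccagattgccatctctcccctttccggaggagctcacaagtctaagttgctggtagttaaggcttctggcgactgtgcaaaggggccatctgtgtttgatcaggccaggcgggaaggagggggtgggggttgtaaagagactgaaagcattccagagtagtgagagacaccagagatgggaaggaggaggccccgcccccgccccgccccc

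The P2ry12 window held GGAAGT at position −51 from the start, the P2ry13 window held GAGGAA at position −48, and the Olfml3 window held neither. Among all 32851 windows of this length, GAGGAA occurred in 23.3%, GGAAGT in 19.7% and either of them in 36.7%, so both words are common. Of the 6 genes with a window, 4 held a match. Tmem119, Selplg and Gpr34 had no window in the table.

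The data comprised 13052 cells, and 9403 of them carried the authors' label Microglia, with 475 to 1186 in each pool. Pools held 5745242 to 13742781 raw unique molecular identifiers (UMIs) over all cells, and their microglia had a median of 6411 to 7304 UMIs per cell. RNA values are SCTransform-corrected UMIs per cell (SCT values), averaged per cell type and pool, and they are not raw counts. They depend on how each gene is captured, so levels are compared between cells and pools, never between genes. The 12-week pools were loaded in 1 well and the 72-week pools in another, so age and well cannot be told apart. Hashtags 1 to 3 marked control pools and 4 to 6 antibiotic pools, so hashtag and treatment cannot be told apart either. A total of 59 cell barcodes occurred in both wells.

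Nearly every microglial cell held RNA of these genes. Tmem119 was above 0 in 9403 of 9403 microglia, and no source used here says how the authors defined the label. P2ry12, Gpr34, Siglech, Sparc, Olfml3, Selplg and Fcrls were above 0 in 96.9% to 99.8% of microglia. P2ry13 was the exception, at 83.9% of microglia and 79.3% to 90.1% by pool. All 9 genes were above 0 together in 7457 microglia (79.3%), and 7 or fewer in 191 cells (2.03%). These shares are of corrected values, which the correction raises in shallow cells: 137 of 137 cells labelled Ly6CHigh with under 2000 raw UMIs had P2ry12 above 0, against 34 of the 252 deeper ones (13.5%).

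Microglia differed among themselves by the authors' cluster. Cluster 0 held 8041 microglia with a median of 7220 raw UMIs, and cluster 1 held 1204 with a median of 1452. Mean SCT values in cluster 1 were 26.8% to 53.0% of those in cluster 0, lowest for Olfml3 and highest for Siglech. Cluster 1 made up 7.59% to 12.8% of the microglia in the 12-week pools and 11.6% to 19.7% in the 72-week pools. Because clusters were formed from the same RNA, this contrast is a description.

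Across cell types, the order of levels is a description, since the genes were chosen as microglial. P2ry12 averaged 10.5 ± 1.23 SCT values per cell in microglia (SD, n = 12 pools). It averaged 2.49 ± 1.22 in border-associated macrophages (BAM), the macrophages of the meninges and perivascular spaces (n = 12). The other types lay lower, from 0.821 ± 0.451 in B cells, 0.729 ± 0.244 in Ly6CLow, 0.706 ± 0.510 in Ly6CHigh and 0.685 ± 0.445 in Ly6C+Ly6G+ cells to 0.477 ± 0.489 in CD4+ cells (n = 11), 0.403 ± 0.269 in innate lymphoid cells and 0.201 ± 0.137 in CD8+ cells. Microglial pools (8.26 to 12.3) lay above every BAM pool (1.06 to 5), and from B cells down each type's pools overlapped those of the next.

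CD8+ cells, which should lack these genes, serve as the background. Leaving out Selplg, the members stood at 1.82% to 2.98% of their microglial level in CD8+ cells, whose median raw depth (7096.5 UMIs) was close to that of microglia (6934). P2ry12 was above 0 in 14.7% of CD8+ cells, against 99.5% of microglia. CD4+ cells ran from 2.73% to 5.05% and innate lymphoid cells from 2.98% to 5.84%. Ly6CHigh cells reached 5.93% to 12.1%, but 1.29% to 3.67% when only cells with at least 2000 raw UMIs were kept. Values at those levels cannot be read as expression.

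**Figure D1:**
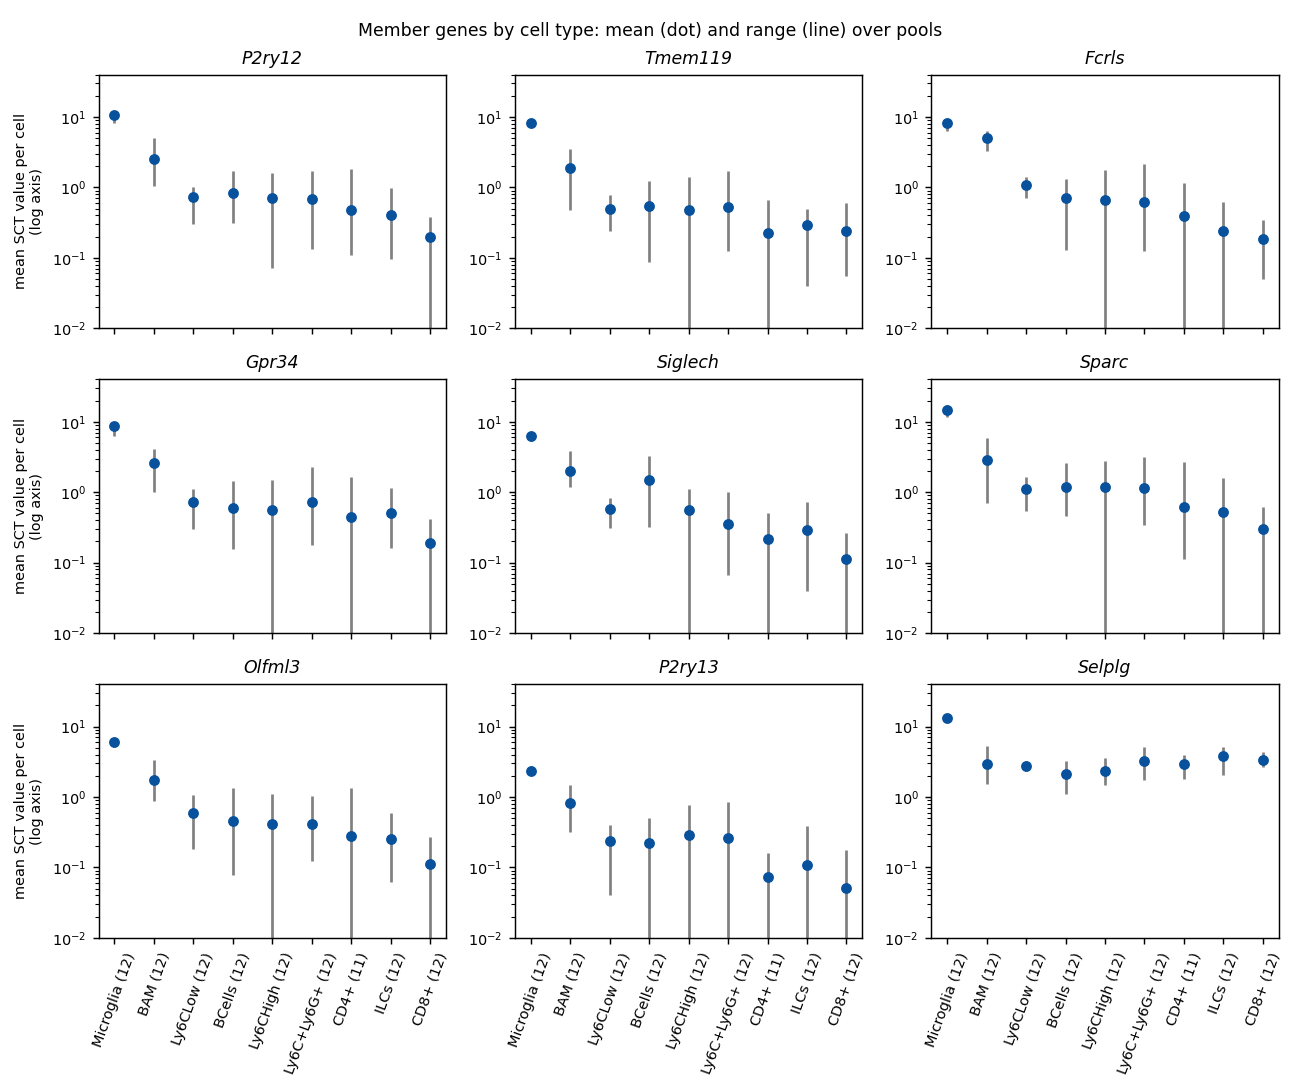
Mean SCT value per cell (log axis) of the 9 genes in the authors' 9 cell types with at least 50 cells; dots are means over pools, lines run from the lowest to the highest pool, and pools at 0 are drawn at the foot of the axis. The number of pools with at least 5 cells stands in parentheses, and microglia lie highest in all 9 panels.

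Fcrls, Siglech and Selplg departed from the shared pattern. Fcrls in BAM reached 4.97 ± 1.05 (n = 12 pools), 61.4% of its microglial level of 8.09 ± 0.817. The other members in BAM, Selplg aside, lay at 19.5% to 34.6%. Of BAM, 82.2% had Fcrls above 0, and in BAM of cluster 8, where the BAM marker Mrc1 was 10.4 per cell, Fcrls averaged 7.97.

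Siglech was raised in the cells labelled BCells, at 23.9% of its microglial level, while the other members there, Selplg aside, lay at 6.82% to 9.45%. The excess sat in 19 cells of cluster 11, where Siglech averaged 17.6 per cell and was above 0 in 19 of 19. In the 318 cells of cluster 5, which held most of the label, it averaged 0.456. The cluster 11 cells carried Bst2 at 38.5 and Klk1 at 9.05, which are markers of plasmacytoid dendritic cells, and Cd79a, a B cell gene, at 0.526 against 17.7 in cluster 5. The Siglech value under this label therefore comes largely from cells with little B cell RNA. Cluster 11 was singled out after its values were seen.

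Selplg RNA was found in every type compared. It stood at 16.1% to 28.8% of its microglial level (13.3 ± 0.462) in the 8 other types and was above 0 in 93.7% of CD8+ cells. Its profile over the 9 types correlated with the mean of the members at r = 0.741, against 0.940 to 0.997 for the other 8 (n = 9 types, which share libraries). Of the 3541 genes compared, members included, Scoc (r = 0.998), Rhob (0.990), Senp2 (0.989) and Epb41l2 (0.988) were among the 5 non-members closest to that mean profile. Over the 12 microglial pools, Pdlim4 (r = 0.94), F11r (0.94) and Bin2 (0.93) followed the members most closely and Rnf145 (−0.91), Mtf2 (−0.90) and E130102H24Rik (−0.89) ran most opposite, as descriptions with no test.

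The comparison of antibiotic with control mice asks whether depleting the gut microbiota alters microglia, and whether it does so alike at both ages. Among the members, Gpr34 had the lowest log2 change at 72 weeks and over both ages, while at 12 weeks P2ry13 did. In 12-week mice the microglial SCT values of Gpr34 were 9.11, 9.21 and 9.89 in control pools and 8.06, 8.15 and 8.97 in antibiotic pools. In 72-week mice they were 9.90, 9.21 and 9.81 in control pools and 7.98, 6.26 and 7.91 in antibiotic pools. Every antibiotic pool lay below every control pool of its age, and 72-week antibiotic pool 2 was the lowest of all 12.

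By limma with Benjamini-Hochberg adjustment over all 8759 genes tested, Gpr34 fell by 0.39 on the log2(value + 0.05) scale at 72 weeks (SE 0.0824, adjusted p = 0.0131), lower in 3 of 3 pools. At 12 weeks its change was −0.16 (adjusted p = 0.506) and did not pass. Over both ages it fell by 0.28 (SE 0.0583, adjusted p = 0.00871). The difference between the ages was −0.23 (95% interval −0.47 to 0.02, adjusted p = 0.783), so a larger fall at 72 weeks was not shown. The 72-week call was lost without 72-week control 1 (adjusted p = 0.0579), without 72-week antibiotic 2 (log2 change −0.28, adjusted p = 0.0720), and with no filter on low values (0.0778; 0.0638 over both ages). Within cluster 0 alone, the fall at 72 weeks was 0.36 (adjusted p = 0.00680), so it was nearly as large without the shallow cluster 1.

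P2ry13 also fell over both ages. Its values were 2.48, 2.61 and 2.78 in 12-week control pools and 2.39, 2.24 and 2.35 in 12-week antibiotic pools. They were 2.41, 2.34 and 2.32 in 72-week control pools and 2.13, 2.03 and 2.19 in 72-week antibiotic pools. The groups did not overlap at either age.

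The change in P2ry13 was −0.17 at 12 weeks and −0.15 at 72 weeks, and neither passed alone (limma adjusted p = 0.282 and 0.146). Over both ages it fell by 0.16 (SE 0.0406, adjusted p = 0.0251). That call was lost when any of 5 pools was left out, namely 12-week control 3 (adjusted p = 0.0785), 12-week antibiotic 2 (0.0573), 72-week control 1 (0.0600), 72-week control 2 (0.0526) or 72-week antibiotic 2 (0.0691). In cluster 0 alone it was −0.15 (adjusted p = 0.0194).

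P2ry12, the other ADP receptor, gave 10.9, 11.7 and 12.3 in 12-week control pools and 10.9, 10.7 and 12.3 in 12-week antibiotic pools. In 72-week mice it gave 10.8, 9.77 and 10.2 in control pools and 9.16, 8.26 and 9.43 in antibiotic pools. The 12-week groups overlapped and the 72-week groups did not. Its change at 72 weeks was −0.19 (95% interval −0.35 to −0.04), with an unadjusted p of 0.0172 and a limma adjusted p of 0.159, which did not pass.

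**Figure D2:**
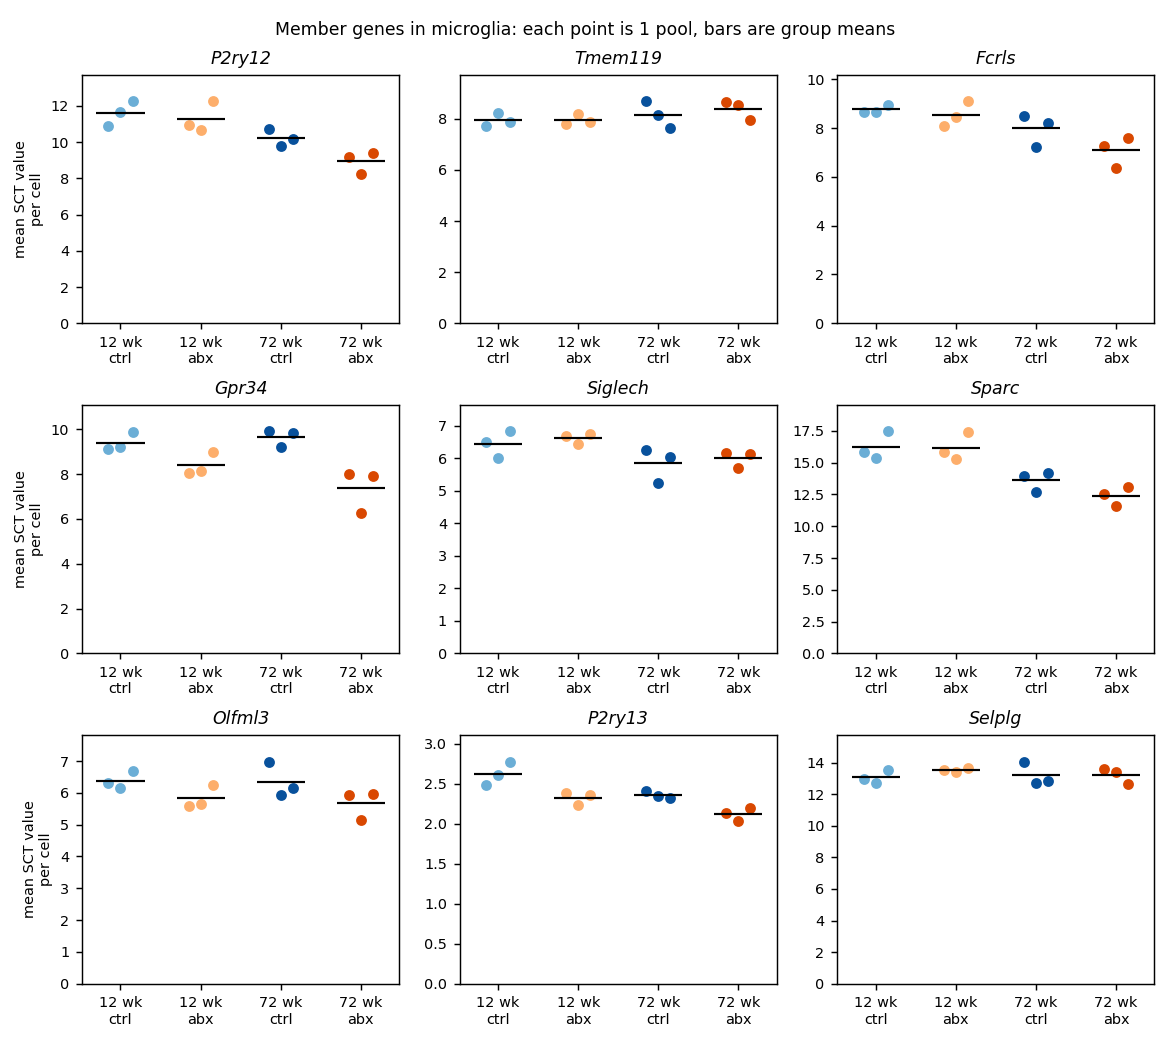
Mean SCT value per microglial cell of the 9 genes (y axes start at 0), 1 point per pool and bars at the group means, for control (ctrl) and antibiotic (abx) pools at 12 and 72 weeks (wk). Gpr34 and P2ry13 lie lower in every antibiotic pool than in every control pool of the same age.

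Neither secreted protein passed, nor did Fcrls. Olfml3 gave 6.32, 6.15 and 6.68 in 12-week control against 5.60, 5.66 and 6.24 in 12-week antibiotic pools, and 6.98, 5.92 and 6.15 in 72-week control against 5.94, 5.16 and 5.96 in 72-week antibiotic pools. The groups overlapped at each age, and its change over both ages was −0.14 (95% interval −0.26 to −0.03, limma adjusted p = 0.116). Sparc changed by −0.01 at 12 weeks and −0.14 at 72 weeks, and Fcrls by −0.04 and −0.17, with limma adjusted p values from 0.231 to 0.985.

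Tmem119, Siglech and Selplg stayed near their control levels. Tmem119 gave 7.73 to 8.23 in 12-week control, 7.82 to 8.21 in 12-week antibiotic, 7.66 to 8.69 in 72-week control and 7.95 to 8.67 in 72-week antibiotic pools, all overlapping. Its change over both ages was 0.02 (95% interval −0.07 to 0.12). That of Selplg was 0.03 (−0.07 to 0.12) and that of Siglech 0.04 (−0.06 to 0.15), so falls as large as the 0.16 of P2ry13 lay outside all 3 intervals. None of the 3 passed by limma (adjusted p = 0.828, 0.789 and 0.691).

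Counted together, 0 of the 9 members passed at 12 weeks by limma, where 0.137% of all genes did (0.0799% called lower), with 1 member at an unadjusted p under 0.05. At 72 weeks 1 of 9 passed (Gpr34, lower) against 3.23% of all genes and 1.64% called lower, and over both ages 2 of 9 passed (Gpr34 and P2ry13, both lower) against 5.4% and 3.24%. An unadjusted limma p under 0.05 was reached by 5 members at 72 weeks and 4 over both ages, and by 1610 and 1852 of all 8759 genes. The median log2 change of the members at 72 weeks was −0.15, beside −0.01 over all genes, with 6 of 9 below 0 against 51.8% of all genes. Lower without overlap of pools were 2 of 9 at 12 weeks (background 9.56%), 3 of 9 at 72 weeks (background 12%) and 2 of 9 at both ages (background 2.63%). For the difference between the ages 0 of 9 passed, as did 0% of all genes, with 0 members and 579 genes at an unadjusted p under 0.05.

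**Figure D3:**
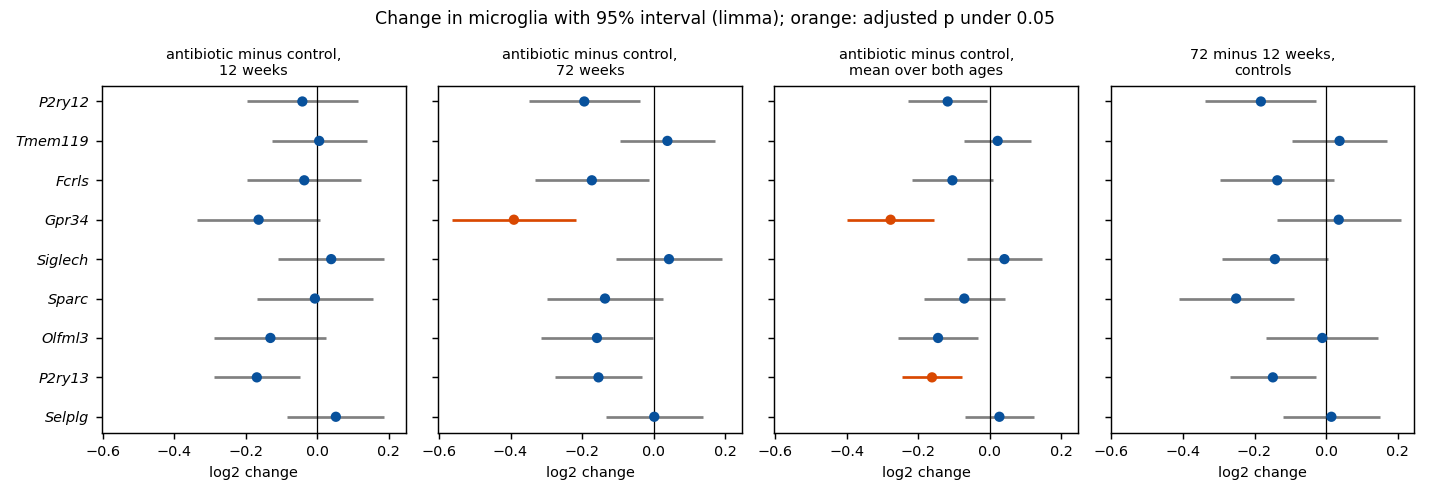
Log2 change with its 95% interval (limma) of the 9 genes in microglia for antibiotic minus control at 12 weeks, at 72 weeks and over both ages, and for 72 minus 12 weeks in controls. Orange marks an adjusted p under 0.05, which only Gpr34 (72 weeks, both ages) and P2ry13 (both ages) reach in these 4 contrasts.

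RNA of other cells in the microglial barcodes differed between the groups. The summed SCT value of 7 neutrophil markers ran from 2.31 to 6.48 in 12-week control, 2.40 to 20.9 in 12-week antibiotic, 0.639 to 0.739 in 72-week control and 1.11 to 3.03 in 72-week antibiotic pools, led by S100a8 and S100a9. The sum of 4 mural cell markers ran from 0.486 to 1.49, 0.274 to 0.646, 0.481 to 0.999 and 0.194 to 0.673 in the same order. Control and antibiotic pools of an age overlapped in these sums, save for neutrophil markers at 72 weeks. By limma 0 of 6 neutrophil and 0 of 3 mural genes tested passed in any antibiotic contrast. Over both ages 4 and 3 had an unadjusted p under 0.05, as had 1852 of all 8759 genes. With age 5 of 6 neutrophil genes passed, all lower, where 2.66% of all genes did (0.457% lower). The sum of 6 T cell markers was at most 0.153 in any pool. Of 8 BAM markers, Stab1 averaged 1.22 over pools and each of the others at most 0.0228, so their sum (1.13 to 1.62 over pools) was nearly all Stab1. The part of these in the members' changes was not tested.

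The other genes of the homeostatic set were described from a list of 27, all tested. At 12 weeks 0 passed by limma, with 5 at an unadjusted p under 0.05, as had 928 of all 8759 genes. At 72 weeks 1 passed, lower, where 3.23% of all genes did (1.64% lower), a share near that background. Over both ages 3 passed, all lower, where 5.4% of all genes did (3.24% lower). Bin1, a membrane-bending protein linked by genetics to Alzheimer's disease, fell by 0.37 at 72 weeks (adjusted p = 0.00610) and by 0.30 over both ages (0.00124). Its group means were 4.98 ± 0.245 and 4.22 ± 0.252 in 12-week control and antibiotic mice, and 4.48 ± 0.240 and 3.46 ± 0.263 at 72 weeks (SD, n = 3 pools each). Fscn1, an actin-bundling protein, fell by 0.23 over both ages (adjusted p = 0.0346), a call lost without any of 9 pools, with no filter on low values (0.139) and at 4000 to 10000 raw UMIs (0.0707). The median log2 change of the list at 72 weeks was −0.03, with 18 of 27 below 0.

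Of 15 transcription factors and TGF-beta genes that support microglial identity, 2 fell at 72 weeks and 3 over both ages, and 0 passed at 12 weeks by limma (5 at an unadjusted p under 0.05, against 928 of all 8759 genes). Of all genes 3.23% passed at 72 weeks (1.64% lower) and 5.4% over both ages (3.24% lower). Irf8, a transcription factor of the myeloid lineage, had group means of 3.72 ± 0.142 and 3.28 ± 0.0371 in 12-week control and antibiotic mice and 3.83 ± 0.235 and 3.02 ± 0.208 at 72 weeks (n = 3 each). It fell by 0.34 at 72 weeks (limma adjusted p = 0.00610) and by 0.26 over both ages (0.00215). Nrros, which holds latent TGF-beta at the cell surface for activation, fell by 0.39 both at 72 weeks (adjusted p = 0.0172) and over both ages (0.00101). The 72-week call of Nrros was lost without 72-week control 2 (0.102), 72-week antibiotic 1 (0.0626) or 72-week antibiotic 2 (0.0770), and with no filter on low values (0.0834). Sall3, a zinc finger factor, fell by 0.18 over both ages (0.0320), a call lost without any of 7 pools, with no filter on low values (0.0779), with averaged logs (0.0568), at 4000 to 10000 raw UMIs (0.1), in cluster 0 alone (0.0599) and with at least 2000 raw UMIs (0.0686). The list's median change was −0.07 at 12 weeks and −0.07 at 72 weeks, with 13 of 15 below 0 at 72 weeks.

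With age, in control mice, 0 of the 9 members passed by limma, against 2.66% of all genes (0.457% called lower), with 3 at an unadjusted p under 0.05. Sparc gave 15.9, 15.4 and 17.5 in 12-week control and 14.0, 12.7 and 14.2 in 72-week control pools, with no overlap. Its change was −0.25 (95% interval −0.41 to −0.09, unadjusted p = 0.00417, adjusted p = 0.105). P2ry12 changed by −0.18 and P2ry13 by −0.15, with adjusted p values of 0.280 and 0.245, while Gpr34 (0.04), Tmem119 (0.04), Selplg (0.01) and Olfml3 (−0.01) lay near 0. Lower without overlap were 4 of 9 (Sparc, P2ry12, P2ry13 and Fcrls), where the background was 7.09%.

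Beside them, 4 of 9 tested genes of the disease-associated microglial state rose with age by limma and 0 fell. Of all genes 2.66% passed with age (0.457% lower). Cst7, a cystatin, rose by 1.02 (adjusted p = 0.000133), Axl, a receptor for apoptotic cells, by 0.84 (4.22e-05), Apoe, a lipid carrier, by 0.75 (0.00374) and Cd9, a tetraspanin, by 0.33 (0.00907). Cst7 and Axl levels were low, at 0.149 and 0.147 per cell in 72-week controls. The Cd9 call was lost without 72-week control 2 (0.0530) and when logs were averaged over cells (0.107), and the Apoe call with no filter on low values (0.0634). These genes were named after their values were seen. Among the identity factors Runx1 rose by 0.31 (adjusted p = 0.00747). At 72 weeks under antibiotics 1 of the 9 disease-associated genes passed by limma, where 3.23% of all genes did. It was Spp1 (osteopontin, log2 change 1.72, adjusted p = 0.0109), at 0.490 ± 0.213 per cell against 0.107 ± 0.0371. The Spp1 call was lost without 72-week control 3 (0.0508), without 72-week antibiotic 3 (0.0507) with no filter on low values (0.103), among microglia with 4000 to 10000 raw UMIs (log2 change 0.20, adjusted p = 0.807) and when logs were averaged over cells (change 0.01, adjusted p = 0.410).

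In BAM all 9 members were lower on average in 72-week antibiotic than in 72-week control mice, and Gpr34 and Olfml3 passed. Pools held 17 to 62 BAM, and 1 of them (12-week control 2) fell short of the 20 cells set for a test, so this comparison was run as an alternative with a minimum of 10. Gpr34 in BAM was 4, 3 and 4.11 in 72-week control and 1, 1.5 and 1.78 in 72-week antibiotic pools. At 12 weeks it was 1.82, 3.12 and 3 in control and 1.72, 2.85 and 3.45 in antibiotic pools. The 72-week groups stood apart and the 12-week groups overlapped.

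Olfml3 in BAM was 3.32, 2.20 and 2.45 in 72-week control and 1.06, 0.886 and 1.08 in 72-week antibiotic pools, again without overlap. By limma over 8942 genes, Gpr34 fell by 1.37 (SE 0.248, adjusted p = 0.0238) and Olfml3 by 1.34 (SE 0.235, adjusted p = 0.0210). That is 2 of 9 members, against 0.123% of all genes. The pools were lower without overlap for 8 of 9 members, all but Selplg, where the background was 10.2% of all genes. The other 7 changed by −0.58 (Fcrls) to −1.43 (Sparc), with adjusted p values from 0.179 to 0.594. Both calls were lost without 72-week control 1 (adjusted p = 0.153 for each), 72-week control 3 (Gpr34 0.136, Olfml3 0.0573), 72-week antibiotic 1 (0.183 and 0.0685) or 72-week antibiotic 2 (0.153 and 0.166). With no filter on low values Gpr34 had an adjusted p of 0.0510.

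In the other contrasts in BAM 0 of 9 members passed by limma, where 0.0224% of genes did at 12 weeks, 0.0559% over both ages and 0.0447% with age. The difference of the effect between ages did not pass for any member (Gpr34 −1.37, adjusted p = 0.574), nor for any gene, with 551 genes at an unadjusted p under 0.05. Microglial genes outside the 9 ran alongside. Cx3cr1 in BAM was 11.9, 9.38 and 8.94 in 72-week control and 3.94, 4.16 and 6.30 in 72-week antibiotic pools, and Sall1, a factor that marks microglia, was 0.432, 0.125 and 0.306 against 0.0606, 0.0227 and 0.12. The BAM marker Mrc1 overlapped, at 4.97, 5.53 and 5.90 against 5.97, 5.70 and 5.66. Of the other BAM markers shown by group, Pf4 averaged 8.82 ± 1.74 in 72-week control and 6.85 ± 1.29 in 72-week antibiotic pools, and Ms4a7 3.54 ± 1.08 and 3.43 ± 0.185 (SD, n = 3 each), both with overlap. A total of 12 BAM were in cluster 0, the main microglial cluster, where P2ry12 averaged 9. Within BAM of cluster 3 alone (25 to 43 cells per 72-week pool), Gpr34 was 2.72, 2.14 and 3.47 in control and 1.07, 1.33 and 1.47 in antibiotic pools, which also did not overlap. How far microglial RNA or cells under the BAM label moved these values was not tested.

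**Figure D4:**
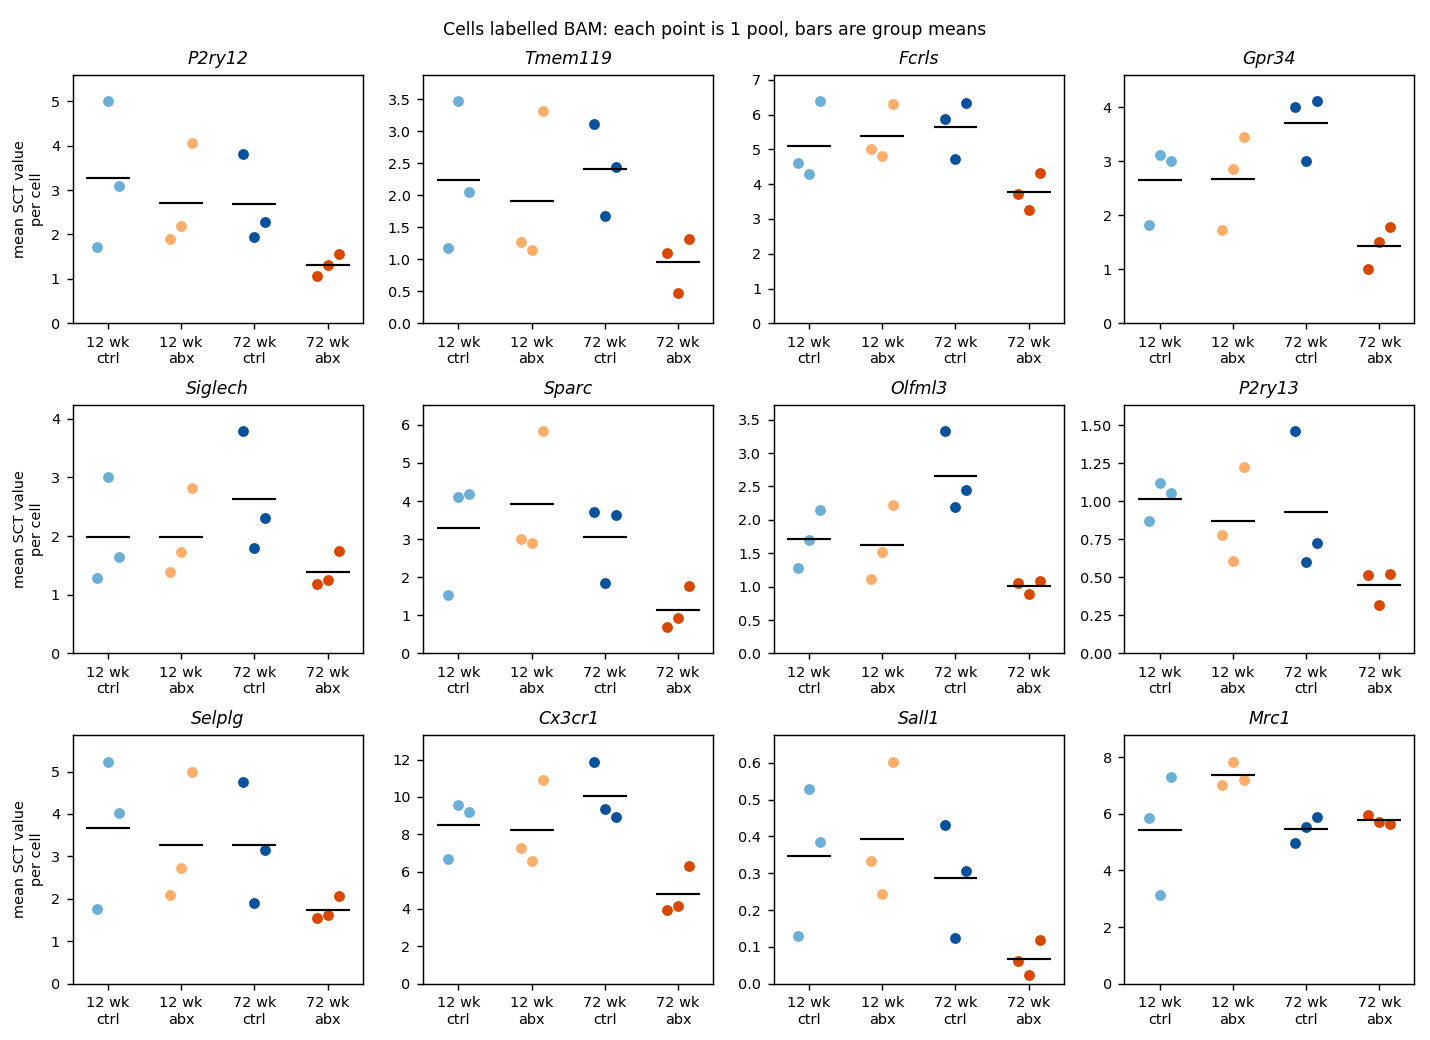
Mean SCT value per cell (y axes start at 0) in cells labelled BAM for the 9 genes and for Cx3cr1, Sall1 and Mrc1, 1 point per pool and bars at the group means, for control (ctrl) and antibiotic (abx) pools at 12 and 72 weeks (wk). The 72-week antibiotic pools lie below the 72-week control pools for 8 of the 9 members (all but Selplg), Cx3cr1 and Sall1, while Mrc1 overlaps.

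Ly6CLow cells, whose label names only low Ly6C, were the remaining type with at least 20 cells in every pool. No member passed in the 4 antibiotic contrasts by limma, where 0 of 8613 genes did and 365 to 535 had an unadjusted p under 0.05. Sparc came nearest, at 12 weeks (log2 change −0.88, unadjusted p = 0.000730, adjusted p = 1). With age 1 of 9 passed, against 0.755% of all genes. Gpr34 rose from 0.362, 0.537 and 0.48 in 12-week control to 1.11, 0.986 and 1.10 in 72-week control pools (log2 change 1.15, adjusted p = 0.0389). Over all 12 pools Gpr34 in these cells averaged 8.34% of its microglial level. Among Ly6CLow cells with at least 2000 raw UMIs the change was 0.56 (adjusted p = 0.956). The Ly6CLow call was lost with no filter on low values (0.0653), and leaving out any of 6 pools also ended it (0.0508 to 0.151). In B cells, tested with at least 10 cells per pool, 0 of 9 members passed in any contrast by limma, where at most 0.0596% of genes did (with age), with 230 to 675 of 8383 genes at an unadjusted p under 0.05.

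Antibodies to the products of Tmem119 and Siglech, and to CX3CR1, the fractalkine receptor of microglia, were in the panel. Their 15-base tags are shown because they, and not the RNA, carry the protein readout, and they were counted per cell as raw tags.

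TMEM119 tag: TCGAACATTTCCAGG
Siglec-H tag: CCGCACCTACATTAG
CX3CR1 tag: CACTCTCAGTCCTAT

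The TMEM119 antibody did not set microglia apart by tags per cell. Microglia held 1.92 ± 0.0744 tags per cell in the 12-week well and 0.337 ± 0.0246 in the 72-week well (SD, n = 6 pools each), against 3.11 ± 0.701 and 0.458 ± 0.0953 in CD8+ cells, which should lack the gene. Those levels per cell are below the background in CD8+ cells, and no expression can be read from them. Siglec-H tags were 8.16 ± 0.557 and 1.56 ± 0.112 in microglia against 6.39 ± 0.969 and 1.49 ± 0.371 in CD8+ cells, and the pools of these types overlapped in both wells. CX3CR1 tags stood apart from those of CD8+ cells, at 125 ± 12.9 and 19.0 ± 2.11 in microglia against 26.1 ± 6.94 and 4.94 ± 1.17. By tags per cell, CX3CR1 did not set microglia apart from BAM, at 102.7 ± 14.4 and 13.7 ± 3.41, whose pools overlapped the microglial pools in both wells. The median total of all tags per microglial cell was 1223 in the 12-week well and 169 in the 72-week well, against 3072 and 574 in CD8+ cells. As a share of all tags, TMEM119 made up 0.144% and 0.164% in microglia against 0.0779% and 0.0693% in CD8+ cells, so the order of these types turned with the scale. Siglec-H made up 0.617% and 0.764% in microglia against 0.169% and 0.226% in CD8+ cells, so on this scale it was higher in microglia in both wells. CX3CR1 made up 9.52% and 9.34% in microglia against 2.65% and 2.03% in BAM, whose median total was 3375 and 544.5 tags per cell. On this scale CX3CR1 was higher in microglia than in BAM in both wells.

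**Figure D5:**
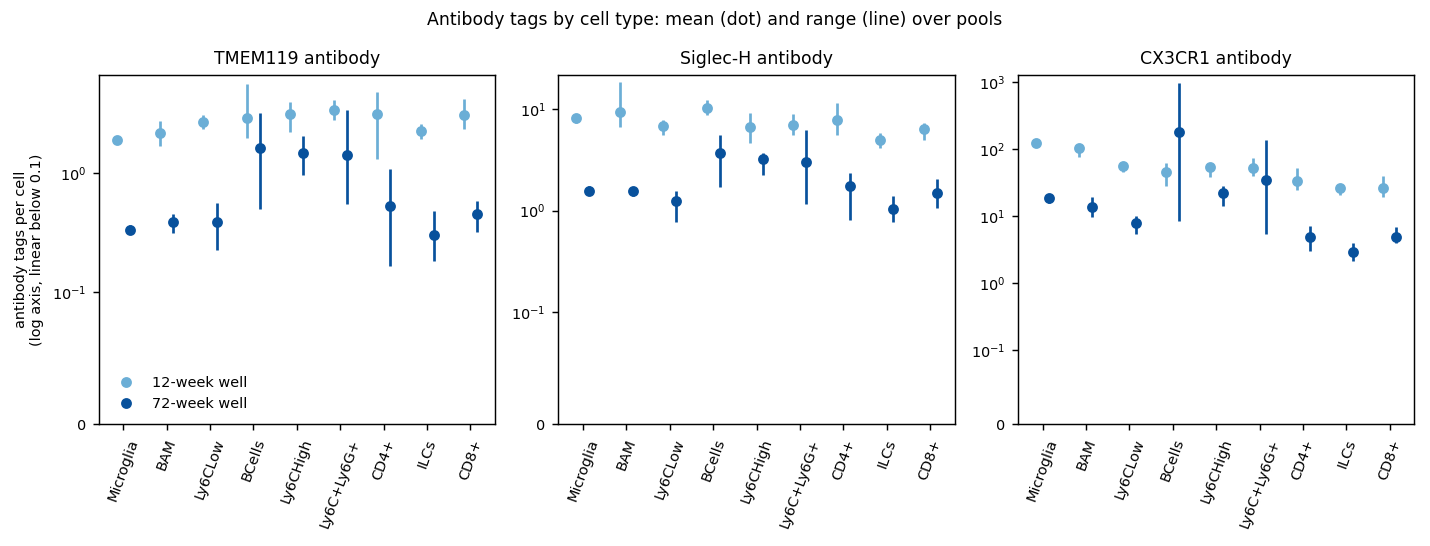
Tags per cell of the TMEM119, Siglec-H and CX3CR1 antibodies (log axis, linear below 0.1) by cell type in the 12-week and 72-week wells, with means (dots) and ranges (lines) over pools. TMEM119 is not highest in microglia in either well. By tags per cell CX3CR1 is high in microglia and in BAM, whose pools overlap in both wells. In the 72-week well the highest pools of B cells (960.2), Ly6C+Ly6G+ (137.4) and Ly6CHigh cells (28.4) lie above every microglial pool. The median CX3CR1 tags per cell in that well, not drawn, were 7, 7 and 18 in these types and 16 in microglia.

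No antibody passed in the antibiotic contrasts by edgeR's quasi-likelihood test over 34 antibodies, with 3 at an unadjusted p under 0.05 at 12 weeks, 4 at 72 weeks, 5 over both ages and 1 for the age difference in effect (DESeq2 called 0, 0, 2 and 0). Over both ages TMEM119 changed by 0.02 and Siglec-H by 0.02 (edgeR adjusted p = 0.914 and 0.933). CX3CR1 changed by −0.21 over both ages, with an edgeR adjusted p of 0.205, and DESeq2 called it (−0.22, adjusted p = 0.0280). With age 52.9% of antibodies passed, CX3CR1 among them (−0.29, edgeR adjusted p = 0.0147), while TMEM119 (−0.08, 0.339) and Siglec-H (−0.04, 0.662) did not. The age values rest on the scaling. With totals alone as library size, edgeR gave CX3CR1 −0.02 (adjusted p = 0.845) and TMEM119 0.19 (adjusted p = 0.0857). Siglec-H was then 0.23 (adjusted p = 0.00600), a rise that passed. The CX3CR1 age call was also lost without 12-week control 3 (0.0611), 72-week control 1 (0.0583) or 72-week control 2 (0.0555).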

How the data were processed

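CITE-seq gave RNA and antibody tags for 13052 cells, all called singlets by the authors, from 12 hashtag pools (4 groups of 3). Per the submitters' processing notes, Cell Ranger 3.0.2, Seurat 3.0.1 and mm10 were used. The deposited RNA table holds SCTransform-corrected values, treated here as a score and not as counts, since their sum equals the authors' SCT total in 13052 of 13052 cells. The antibody tags are raw counts per cell as deposited by the authors. The design text names 31 antibodies and the table holds 34. Cell types, clusters and groups are the authors' deposited labels, and 33 metadata columns were not used. No further doublet filter was applied.

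RNA values were averaged per type and pool and tested with limma 3.58.1 (trended variance) on log2(mean + 0.05), for genes whose average across the 12 pools reached 0.05, in types with at least 20 cells in every pool. P-values were Benjamini-Hochberg adjusted over all genes within a contrast, with a threshold of 0.05. Antibody counts were summed over microglia and tested with edgeR 4.0.16 (quasi-likelihood, TMM), with DESeq2 1.42.0 as an alternative. R 4.3.3 and Python 3.11.15 were used. Both tests were checked on simulated data with known changes at 72 weeks. Of 200 changed genes 99% were recovered, with 13 false calls among 8714 tested. Of 4 changed antibodies 100% were recovered, with 0 false calls among 34. The planted changes were larger than those of the members in microglia, so the check does not cover changes of the members' size.

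All members are named, together with genes of the listed sets past the threshold (at most 4 per direction and contrast) and the genes of highest or lowest correlation. Some genes that this rule names are not reported here. The members and lists were chosen with earlier results of these data known. The alternatives were another pseudocount, no filter on low values, scaling to an equal total, averaging logs, a matched depth, separate fits, a hashtag block and leaving out each pool. Restriction to cluster 0 and to microglia with at least 2000 raw UMIs was added after the data were seen. Deviations of same-numbered hashtags correlated at −0.0946 to 0.109 between the wells, so the numbers were not treated as pairs.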

Additional observations from a re-analysis of the deposited data

How the results depend on the processing

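Genes called in microglia (12 at 12 weeks, 283 at 72 weeks, 473 over both ages, 0 for the difference between ages, 233 with age) came to 0, 105 and 209 in the first 3 and 145 with age when low values were not filtered, where 0 members passed at 72 weeks and 1 over both ages. More genes are then adjusted for, and the variance trend is fitted with them included. A pseudocount of 0.5 gave 7 at 12 weeks. Averaging log2(value + 1) gave 58 at 12 weeks, 439 at 72 weeks and 4 for the difference. Microglia with 4000 to 10000 raw UMIs gave 19 and 444, and fits on a contrast's own 6 pools gave 25 at 12 weeks. Cluster 0 alone gave 73, 571, 802 and, for the difference, 2, and microglia with at least 2000 raw UMIs gave 22, 459, 711 and 1. With hashtag number as a replicate block the difference gave 3 genes. That block cannot give the antibiotic contrasts, since hashtag and treatment coincide. The cause of these shifts was not tested.

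Leaving out 1 pool at a time gave 0 to 26 genes at 12 weeks, 109 to 304 at 72 weeks, 262 to 528 over both ages, 0 to 4 for the difference and 103 to 242 with age, with 0 to 1 members at 72 weeks and 1 to 2 over both ages. For Ly6CLow with age (65 genes) it gave 19 to 297 genes and 0 to 1 members, no filter gave 36 genes and 0 members, and at least 2000 raw UMIs gave 0 genes and 0 members. For BAM (2, 11, 5, 0 and 4 genes in the same order of contrasts), leaving out 1 pool gave 0 to 3, 0 to 14, 0 to 8, 0 to 2 and 3 to 13 genes, with 0 to 3 members at 72 weeks and 0 to 1 over both ages. A pseudocount of 0.5 gave 1, 7, 0 and, with age, 2 genes in BAM, no filter gave 1, 4 (with 1 member) and 0, and at least 2000 raw UMIs gave 1 at 12 weeks. For B cells with age (5 genes), no filter gave 0, at least 2000 raw UMIs gave 14, and leaving out 1 pool gave 0 to 13 genes and 0 to 1 members. DESeq2 called 2 antibodies over both ages, and leaving out 1 pool gave 0 to 1 antibodies for the difference.

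Signs turned for the following log2 changes in microglia, none of which had passed in the main fit. Sparc at 12 weeks was 0.016 after scaling. Averaging logs gave Tmem119 −0.0018 at 12 weeks, Selplg −0.025 at 72 weeks, and with age Tmem119 −0.027, Gpr34 −0.040 and Selplg −0.039. Tmem119 at 12 weeks was −0.0073 at matched depth. Olfml3 with age was 0.038 at matched depth, 0.046 in cluster 0 and 0.027 with at least 2000 raw UMIs. With totals as library size the TMEM119 antibody was 0.19 and Siglec-H 0.23 with age, and this Siglec-H value passed by edgeR (adjusted p = 0.00600). Leaving out 1 pool, Fcrls ran from −0.082 to 0.0023 at 12 weeks, Sparc from −0.060 to 0.047 at 12 weeks and Olfml3 from −0.080 to 0.038 with age. Selplg ran from −0.031 to 0.040 with age and −0.023 to 0.048 at 72 weeks, and Siglech from −0.011 to 0.080 at 12 weeks and −0.032 to 0.092 at 72 weeks. Tmem119 ran from −0.016 to 0.031 at 12 weeks, −0.0058 to 0.085 at 72 weeks, −0.00031 to 0.045 over both ages and −0.0080 to 0.082 with age. The Siglec-H antibody ran from −0.093 to 0.018 with age and −0.019 to 0.046 over both ages. The TMEM119 antibody ran from −0.0089 to 0.030 at 12 weeks, −0.022 to 0.093 at 72 weeks and −0.0027 to 0.042 over both ages.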
